A study of Mus musculus with 16 samples.

Results

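The precursors of hypothalamic neuropeptides were followed through the whole-brain transcriptomes of 16 mice, by way of the 10 genes Npy, Cartpt, Trh, Pomc, Agrp, Hcrt, Pmch, Avp, Oxt and Crh. They were chosen by name, and their Ensembl identifiers were found through the GRCm38 annotation, which gave 10 of the 49671 genes listed in each count file. C57BL/6 dams received lipopolysaccharide (LPS) or saline into the peritoneum on gestation day 16, and their male offspring received LPS or saline by the same route on postnatal day 30. Brains were taken on postnatal day 32, and each library came from 1 mouse. Each of the 4 groups held 4 mice: saline-saline (both injections saline), LPS-saline (dam LPS, offspring saline), saline-LPS (dam saline, offspring LPS) and LPS-LPS (both LPS). Reading the dam's injection as the first word is an interpretation of the labels, and under the reverse order "prenatal" and "pubertal" would change places below. Litters are not named, so mice may share a dam, and the p-values reflect mouse-to-mouse spread only. LPS, from the outer membrane of Gram-negative bacteria, activates innate immunity.

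Neuropeptides are cut from larger precursor proteins in the secretory pathway and released from nerve endings, in part into the blood. In the arcuate nucleus, neurons that make neuropeptide Y (Npy) and agouti-related peptide (Agrp) promote feeding, while neurons that make pro-opiomelanocortin (Pomc) and CART (Cartpt) restrain it. The paraventricular and supraoptic nuclei make vasopressin (Avp), oxytocin (Oxt), corticotropin-releasing hormone (Crh) and thyrotropin-releasing hormone (Trh), and the lateral hypothalamus makes orexin (Hcrt) and melanin-concentrating hormone (Pmch). Several are also made elsewhere: Npy in interneurons of cortex and hippocampus, Cartpt and Trh in several forebrain regions, Crh in cortex, and Pomc in the pituitary, which lies outside the brain. In whole-brain RNA, fewer cells of a type and less RNA per cell cannot be told apart.

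Libraries held 25729919 to 38571036 gene counts. Values are CPM, counts scaled to 1000000 per library, with library sizes scaled by the trimmed mean of M-values (TMM). Markers of regions differed between libraries of 1 group: Gabra6, which marks the granule cells of the cerebellum, was under 1 CPM in 8 of 16 libraries, although the tissue is labelled as whole brain. These were replicates 1 to 3 of saline-saline, replicate 2 of LPS-LPS, and replicates 1 and 2 of both other groups. LPS-LPS replicate 1 and saline-LPS replicate 1 carried growth hormone mRNA (Gh) at 503 and 44.1 CPM, against at most 2.58 CPM in the other 14. LPS-LPS replicate 3 held 0 counts of the Y-linked gene Ddx3y and 503 CPM of Xist, against its label as male. The 19 genes of the hypothalamic regulator list, a check of the tissue label, had summed levels of 189 to 213 CPM in saline-saline, 179 to 200 in LPS-saline, 176 to 216 in saline-LPS and 186 to 207 in LPS-LPS. Most of that sum came from 4 genes, Baiap3, Dlk1, Ecel1 and Gpr101, with means of 90.6, 35.5, 25.9 and 14.1 CPM in saline-saline. The transcription factors of the list were low there, with means of 3.36 CPM for Nkx2-1, 3.56 for Otp and 0.772 for Sim1.

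Npy, Cartpt and Trh, whose messages rose in the same comparisons, are shown first by the 150 bases before their RefSeq start sites (GRCm38.p6). Of the 10 genes, 8 matched a RefSeq promoter of 300 bases, and Agrp and Crh did not. Both strands of these windows were searched for the full cAMP response element TGACGTCA, its shorter form CGTCA, which overlaps it, and the TATA box TATAAA. Capitals mark matches, which are descriptions of letters and not evidence of binding.
Npy, chr6:49822560-49822709, plus strand: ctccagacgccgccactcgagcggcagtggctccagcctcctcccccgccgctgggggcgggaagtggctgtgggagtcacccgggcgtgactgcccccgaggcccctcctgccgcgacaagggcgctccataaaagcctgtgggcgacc
Cartpt, chr13:99900684-99900833, minus strand: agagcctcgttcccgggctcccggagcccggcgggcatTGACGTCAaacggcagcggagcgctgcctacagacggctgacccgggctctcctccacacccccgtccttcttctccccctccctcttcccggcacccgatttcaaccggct
Trh, chr6:92244651-92244800, minus strand: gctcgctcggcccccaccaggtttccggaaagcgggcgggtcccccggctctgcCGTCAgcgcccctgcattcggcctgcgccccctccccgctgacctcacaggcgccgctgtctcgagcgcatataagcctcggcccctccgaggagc
The full element was found in Cartpt, starting 112 bases before the start, and in 1.79% of all 32851 promoters. The shorter form was found in Cartpt within the full one and in Trh, 96 bases before the start, and in 20.8% of all promoters. The Npy window held none of the 3 motifs. TATAAA stood 25 bases before the start of Pomc, 33 before that of Hcrt and 27 before that of Pmch, and in 13.6% of all promoters. The GENCODE model of Cartpt (chr13:99898489-99901091, minus strand) begins upstream of the RefSeq start, so the stretch shown lies within that gene's annotated span.

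Per kilobase of exon, Npy was the most abundant of the 10 messages and Agrp the least. The median level over 16 libraries was 102 CPM per kb for Npy, 41.4 for Avp, 20.8 for Oxt, 12.9 for Cartpt and 11.8 for Trh. It was 8.99 CPM per kb for Hcrt, 5.07 for Crh, 3.70 for Pomc, 2.14 for Pmch and 1.11 for Agrp. Only Npy had a range over libraries (89.7 to 118 CPM per kb) that did not overlap that of the gene below it in this order. Ranked within a library, Avp lay above Oxt, Oxt above Cartpt, Hcrt above Crh and Pomc above Pmch in 16, 16, 16 and 16 libraries, respectively, so those neighbours kept their order in each mouse. Cartpt lay above Trh in 12 of 16 libraries and Crh above Pomc in 13 of 16, and these neighbours did not keep one order. Trh lay above Hcrt and Pmch above Agrp in 15 of 16 libraries each. The rarest message, Agrp, had 25 to 47 counts per library and Pmch 26 to 125. Agrp is further uncertain because its gene model (chr8:105566698-105637393, minus strand) spans Ctcf, Ripor1 and other genes, and Pmch overlaps Parpbp on the other strand; strandedness is not given in the sources used here.

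**Figure D1:**
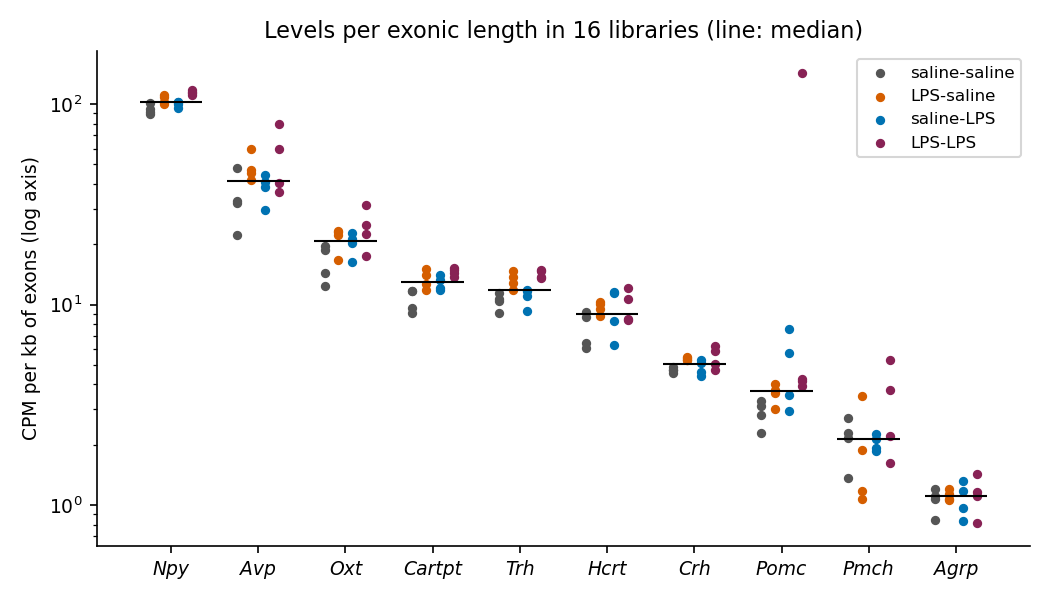
Level of each precursor message per kilobase of exon (CPM per kb, log axis) in 16 libraries, coloured by group, with the median as a line. Npy stands above the other genes apart from 1 Pomc value of 143 CPM per kb in LPS-LPS replicate 1, and Agrp has the lowest median, 1.11.

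After prenatal LPS, averaged over the pubertal injection, 3 of the 10 genes rose and 0 fell. The appetite-related Npy and Cartpt and the thyroid-axis releasing hormone Trh were higher by 13.2%, 20.7% and 28.7%, respectively. In the same comparison 7.82% of 18875 tested genes passed the threshold (Benjamini-Hochberg adjusted p under 0.05 in edgeR's quasi-likelihood test), and 4.9% passed as higher. All 10 fitted log2 fold changes were above 0, with a median of 0.25, whereas 48.3% of all tested genes were above 0, with a median of -0.01. For averaged pubertal LPS too all 10 were above 0, at a median of 0.17, against 50.6% of all tested genes. All 10 genes had passed the filter on low counts. The 10 genes have 537 to 1384 exonic bases. Across 15201 genes, the Spearman correlation of exonic length with a library's log ratio (its log2(CPM + 0.5) less the gene's mean over the 16 libraries) ran from -0.374 to -0.043 in the 8 libraries of LPS-injected dams and from -0.048 to 0.336 in those of saline-injected dams. With an offset for gene length and GC content, Npy and Trh kept their calls at 0.12 and 0.27 (edgeR adjusted p 0.0339 and 0.0105), Cartpt did not (0.19, adjusted p 0.0916), and Agrp turned to -0.028.

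Trh, which drives thyrotropin release from the pituitary and lies at chr6:92242061-92244650 (minus strand), had the clearest separation. In the 4 saline-saline mice it stood at 15.9, 14.4, 14.8 and 12.5 CPM, and in LPS-saline at 20.3, 17.8, 19.1 and 16.3 CPM. In saline-LPS the values were 12.8, 16.3, 15.3 and 16.1 CPM, and in LPS-LPS 20.3, 20.5, 19.1 and 18.7 CPM. All 8 mice of LPS-injected dams were above all 8 mice of saline-injected dams, although the nearest pair, LPS-saline 4 and saline-LPS 2, both round to 16.3 CPM. Such a complete separation upwards was seen for 0.747% of tested genes. The log2 fold change was 0.36 ± 0.06 (SE), with an adjusted p of 0.00279 by edgeR.

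Npy, the orexigenic peptide with the highest level of the 10 (chr6:49822710-49829507, plus strand), was at 57.4, 53.3, 50.8 and 51.7 CPM in saline-saline and at 63.0, 61.5, 58.0 and 56.6 CPM in LPS-saline. It was at 56.8, 57.9, 53.9 and 58.3 CPM in saline-LPS and at 64.2, 65.2, 66.8 and 62.9 CPM in LPS-LPS. Of the 8 mice of LPS-injected dams, 6 exceeded the highest mouse of a saline-injected dam, and the other two, LPS-saline 3 and 4, lay within the upper saline range. The change was small and precise, with a log2 fold change of 0.18 ± 0.04 (SE) and an adjusted p of 0.0089 by edgeR.

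Cartpt, whose peptides reduce food intake (chr13:99898489-99901091, minus strand), was at 14.9, 11.6, 14.9 and 12.2 CPM in saline-saline and at 19.2, 18.0, 16.1 and 15.1 CPM in LPS-saline. It was at 15.4, 17.9, 15.0 and 16.9 CPM in saline-LPS and at 18.5, 17.6, 19.5 and 19.0 CPM in LPS-LPS. The lowest group was saline-saline, whose highest value was 14.9 CPM, against 15.0 CPM in the lowest mouse of the other groups, saline-LPS 3. How many tested genes show such an order was not counted. The prenatal groups overlapped, with 5 of 8 mice of LPS-injected dams above each mouse of a saline-injected dam. The log2 fold change was 0.27 ± 0.07 (SE), with an adjusted p of 0.0187 by edgeR, and it lost its call without LPS-saline replicate 1 (adjusted p 0.0511) and with the length and GC offset.

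**Figure D2:**
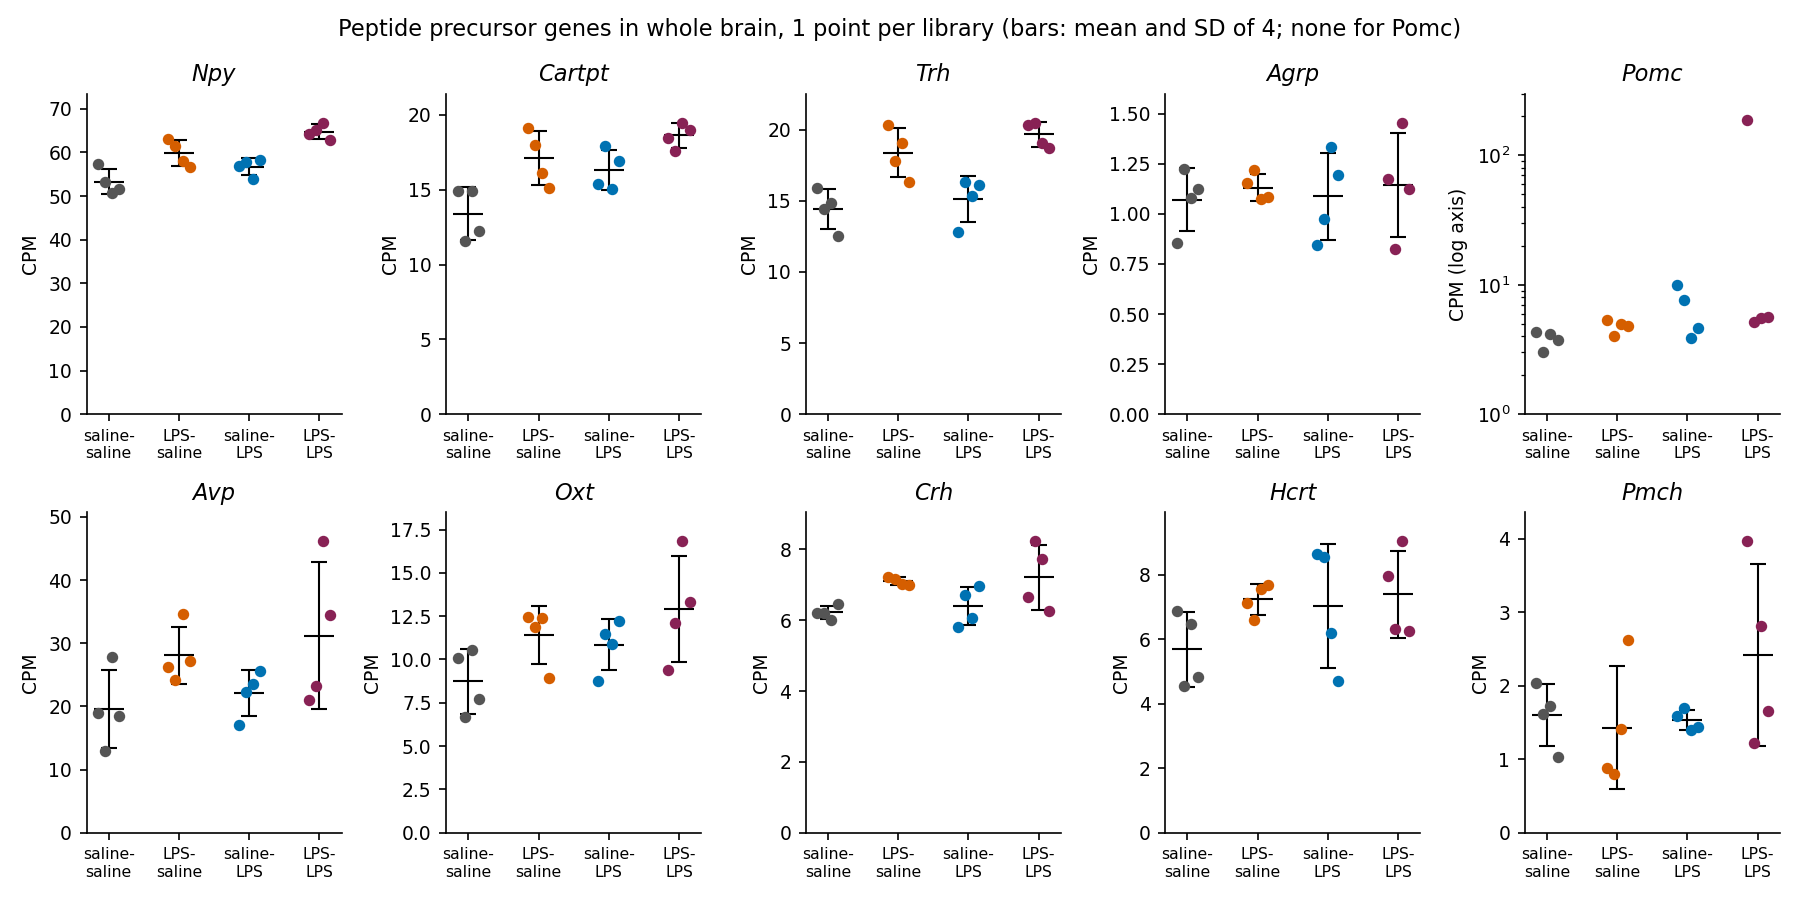
Level of the 10 precursor messages in CPM by group, 1 point per library in replicate order, with bars for mean and SD of 4 mice (Pomc on a log axis, without bars). Trh separates the mice of LPS-injected dams (16.3 to 20.5 CPM) from those of saline-injected dams (12.5 to 16.3 CPM), and 1 LPS-LPS library stands at 188 CPM of Pomc.

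Markers of other brain regions moved in the same comparison, in which 4.9% of 18875 tested genes passed as higher and 552 genes as lower. Of 7 cortical projection neuron markers, 2 rose (Emx1 by 0.37 and Slc17a7 by 0.17 on the log2 scale, edgeR adjusted p 0.00505 and 0.042). The summed level of the 7 ran from 1801 to 2010 CPM in saline-saline, 1903 to 2296 in LPS-saline, 1777 to 2169 in saline-LPS and 2052 to 2337 in LPS-LPS. Of 4 olfactory bulb markers 1 rose (Eomes, 0.34, adjusted p 0.0268) and of 7 thalamus markers 1 fell (Plekhg1, -0.56, adjusted p 0.0424). The bulb markers summed to 67.0 to 85.1, 75.7 to 99.5, 58.2 to 90.1 and 82.3 to 91.8 CPM in the same order of groups, and the thalamus markers to 160 to 198, 107 to 141, 110 to 215 and 83.8 to 135 CPM. These lists overlapped between mice of saline-injected and LPS-injected dams. Among 10 interneuron markers Sst rose (0.14, adjusted p 0.041) and Sox6 fell (-0.22, adjusted p 0.0236). None of 8 cerebellum and 5 tested brainstem markers passed. None of 17 tested hypothalamic regulators passed the threshold, at a median log2 fold change of -0.004 and a range of -0.22 to 0.45.

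The means of the hypothalamic regulators, the cortical, olfactory bulb and thalamus markers, and Gabra6, were added in turn to the edgeR fit. The cortical, bulb and thalamus fits were chosen after seeing the data, and interneuron and brainstem markers were not used as covariates. With the hypothalamic regulators as covariate, Npy, Cartpt and Trh kept their calls at 0.17, 0.25 and 0.36 (adjusted p 0.0102, 0.0169 and 0.00375). With the cortical projection neuron markers none of the 3 passed, at 0.14, 0.13 and 0.27 (adjusted p 0.15, 0.338 and 0.0883). With the olfactory bulb markers none passed either, at 0.17, 0.26 and 0.33 (adjusted p 0.202, 0.256 and 0.126). With the thalamus markers the 3 genes kept their calls at 0.20, 0.27 and 0.35 (adjusted p 0.00771, 0.0294 and 0.00647), and with Gabra6 at 0.19, 0.29 and 0.37 (adjusted p 0.00129, 0.00386 and 0.000419). The cortical and bulb fits called 76 and 38 genes in all, against 1476 without a covariate. The fits with hypothalamic regulators, thalamus markers and Gabra6 called 1424, 1627 and 2756 genes, respectively. Within the 8 libraries under 1 CPM of Gabra6, the changes were 0.19 for Npy, 0.25 for Cartpt and 0.41 for Trh. LPS-LPS was represented there by replicate 2 only. Within the other 8, they were 0.30 for Cartpt, 0.40 for Trh and 0.59 for Hcrt. Saline-saline was represented there by replicate 4 only, with Hcrt at 4.82 CPM, so both fits lean on single mice. Without LPS-LPS replicate 3, the library that went against its label, the 3 genes kept their calls at 0.17, 0.26 and 0.37 (adjusted p 0.0265, 0.0458 and 0.00718).

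Split by pubertal injection, 0 of 10 genes passed the threshold in either stratum, in which 0.18% of tested genes (34) passed before pubertal saline and 0.609% (115) before pubertal LPS. Before pubertal saline the log2 fold changes of Npy, Cartpt and Trh were 0.17 ± 0.05, 0.35 ± 0.10 and 0.35 ± 0.09 (SE), with edgeR adjusted p-values of 0.183, 0.0971 and 0.0817. Before pubertal LPS they were 0.19 ± 0.05, 0.19 ± 0.09 and 0.38 ± 0.09 (SE), with adjusted p-values of 0.12, 0.368 and 0.0601. At an unadjusted p under 0.05 stood 4 and 3 of the 10 genes, respectively, against 2497 and 2637 of the 18875 tested genes. DESeq2 called 2 of the 10 in each stratum (Cartpt and Trh, then Npy and Trh). Among all genes in its test, DESeq2 called 429 of 14115 before pubertal saline and 412 of 14847 before pubertal LPS. The groups did not overlap, upwards, for Cartpt, Trh and Crh before pubertal saline (5.17% of tested genes) and for Npy and Trh before pubertal LPS (4.96%). With the replicate number as a block, Trh passed in both strata (edgeR adjusted p 0.0403 and 0.0307). That fit called 409 and 326 of the 18875 tested genes, respectively, against 34 and 115 without the block. With the block and the length and GC offset together Trh passed in neither (0.26 and 0.28, edgeR adjusted p 0.135 and 0.111).

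Mice that received both injections were compared with mice that received neither, and the same 3 genes rose while 0 fell. Npy was higher by 0.28 ± 0.05, Cartpt by 0.47 ± 0.10 and Trh by 0.45 ± 0.09 on the log2 scale (SE), with edgeR adjusted p-values of 0.00629, 0.00769 and 0.00773. In this comparison 6.56% of tested genes passed, 4.27% as higher and 432 genes as lower. Of 7 cortical projection neuron markers Emx1 and Lamp5 rose (0.50 and 0.29, edgeR adjusted p 0.00884 and 0.03). Of 7 thalamus markers Plekhg1 and Rgs16 fell (-0.94 and -0.48, adjusted p 0.0243 and 0.0449). Among interneuron markers Sst rose (0.22, adjusted p 0.0283) and Sox6 fell (-0.31, adjusted p 0.0277). The pituitary marker Pitx1 rose (1.93, adjusted p 0.0244), at 0.81 ± 0.78 CPM in LPS-LPS (SD). The 4 LPS-LPS mice lay above the 4 saline-saline mice for Npy, Cartpt, Trh and Pomc, a separation shown by 9.63% of tested genes. This comparison shares its mice with the averaged one and is not a second test of it. The calls of Npy, Cartpt and Trh were all lost with the cortical projection neuron markers as covariate (edgeR adjusted p 0.104, 0.143 and 0.131). That fit was chosen after seeing the data.

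**Figure D3:**
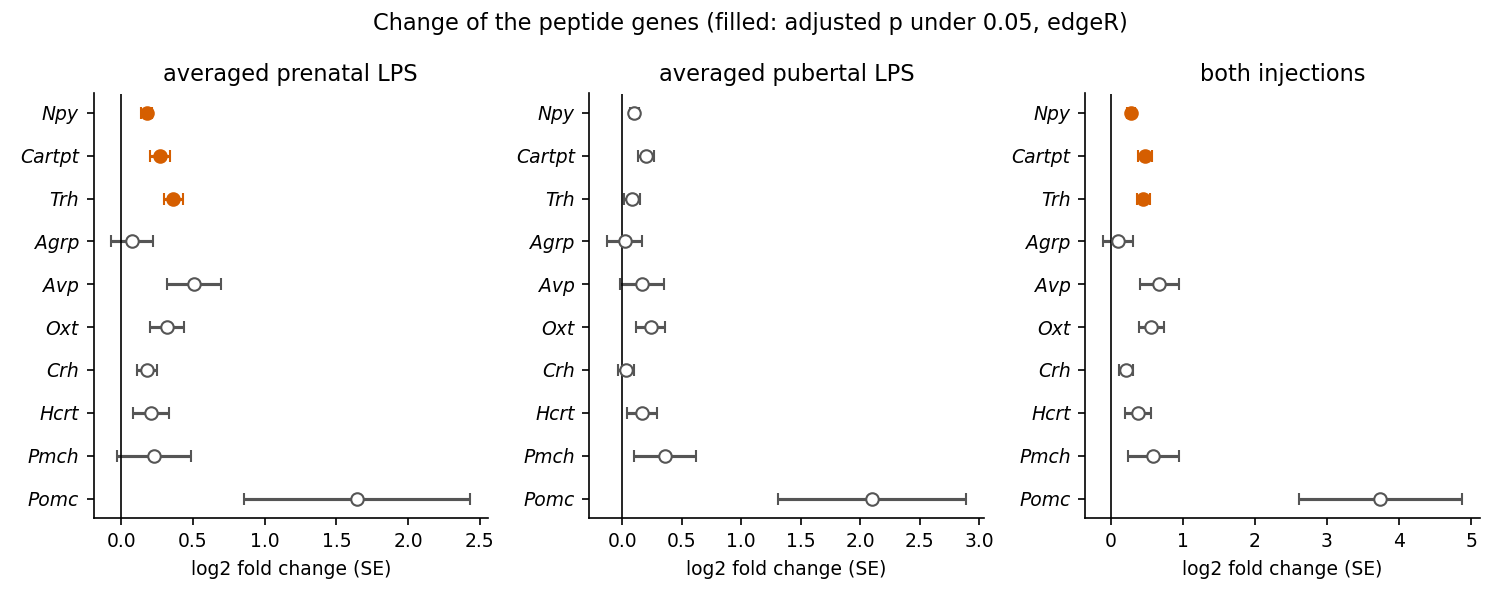
Log2 fold change with SE (x axis, scaled separately in each panel) of the 10 genes for prenatal LPS, pubertal LPS and both injections, from edgeR's fit. Filled points passed the threshold: Npy, Cartpt and Trh for prenatal LPS and for both injections, and no gene for pubertal LPS.

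The neurohypophysial hormones Avp, which retains water, and Oxt, which acts in parturition and lactation, are neighbouring genes on chromosome 2 (chr2:130580620-130582554, minus strand, and chr2:130576173-130577054, plus strand), 3565 bases apart. Avp was at 19.0, 12.9, 27.8 and 18.5 CPM in saline-saline and at 26.3, 24.2, 34.6 and 27.2 CPM in LPS-saline. It was at 17.1, 22.2, 23.5 and 25.6 CPM in saline-LPS and at 20.9, 23.3, 46.1 and 34.5 CPM in LPS-LPS. The groups overlapped, and the mice within LPS-LPS spanned a wider range than the group means did. The averaged prenatal log2 fold change of Avp was 0.51 ± 0.19 (SE), larger than that of Trh, but it did not pass (edgeR adjusted p 0.114). With 1 library left out it ran from 0.38 to 0.61, and the change for both injections from 0.42 to 0.89. With the replicate block the averaged change of Avp passed (0.50, edgeR adjusted p 0.0156). So did that for both injections (0.65, adjusted p 0.0235, against 0.67 and 0.152 without the block). Same-numbered libraries of LPS-LPS and saline-saline did not meet the rule for pairing given below. With the block and the length and GC offset together neither change of Avp passed (0.34 and 0.42, edgeR adjusted p 0.0781 and 0.121).

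Oxt was at 10.1, 6.66, 10.5 and 7.71 CPM in saline-saline and at 12.5, 11.9, 12.4 and 8.92 CPM in LPS-saline. It was at 8.78, 11.5, 10.9 and 12.2 CPM in saline-LPS and at 9.42, 12.1, 16.8 and 13.3 CPM in LPS-LPS. Here too the groups overlapped. LPS-LPS replicate 3, the library that went against its label as male, was highest for both hormones. The averaged prenatal log2 fold change was 0.32 ± 0.12 (SE, edgeR adjusted p 0.111), and that for both injections was 0.56 ± 0.17 (adjusted p 0.0573). DESeq2 called the averaged change (adjusted p 0.0479). The change for both injections gained a call in 8 of 30 alternatives. Among them were the replicate block (0.55, edgeR adjusted p 0.0417) and DESeq2 (0.56, adjusted p 0.0119). With the block and the length and GC offset together it did not pass (0.39, edgeR adjusted p 0.195). For this comparison, too, the rule for pairing given below was not met.

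Avp and Oxt had the highest correlation of any pair. Deviations of log2 CPM from the group means gave Pearson's r of 0.821 and Spearman's rho of 0.80 over the 16 libraries (permutation p 0.00116 and 0.00144, two-sided, 100000 permutations within groups). Over the 45 pairs the adjusted values were 0.0522 and 0.0648, so the pair did not pass. Without saline-saline replicate 3 and LPS-LPS replicate 3 the r was 0.730. By permutation p, Cartpt with Oxt (r 0.723, rho 0.762) and Hcrt with Pmch (r 0.521, rho 0.635) came next, each with a permutation p adjusted to 0.0853, and r was 0.592 and 0.629, respectively, without the 2 libraries farthest from the median. None of the 45 pairs passed. Hcrt and Pmch come from separate neurons of the same hypothalamic area.

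**Figure D4:**
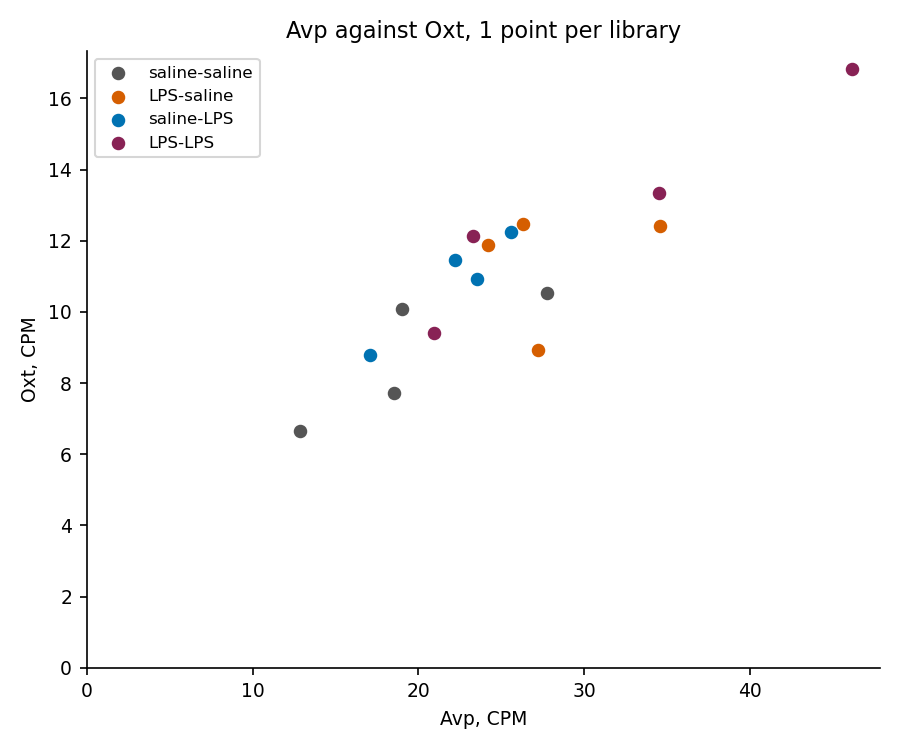
Oxt (y axis, CPM) against Avp (x axis, CPM), 1 point per library, coloured by group. The library with the highest values of both, 46.1 and 16.8 CPM, is LPS-LPS replicate 3, which went against its label as male. The lowest, 12.9 and 6.66 CPM, is saline-saline replicate 2.

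Crh, the hypothalamic trigger of the stress axis (chr3:19693401-19695396, minus strand), was the second least variable of the 10 messages between mice of a group. It was at 6.20, 6.21, 6.02 and 6.46 CPM in saline-saline and at 7.22, 7.18, 7.02 and 6.99 CPM in LPS-saline. It was at 5.81, 6.72, 6.07 and 6.96 CPM in saline-LPS and at 6.66, 8.23, 7.72 and 6.25 CPM in LPS-LPS. The first 2 groups did not overlap and the last 2 did. The averaged prenatal log2 fold change was 0.18 ± 0.07 (SE, edgeR adjusted p 0.108), and neither stratum passed (adjusted p 0.416 and 0.449).

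Pomc, the precursor of melanocortins, beta-endorphin and corticotropin (chr12:3954951-3960642, plus strand), had the largest fitted change and the least secure one. It was at 4.36, 3.01, 4.13 and 3.73 CPM in saline-saline and at 5.32, 3.99, 4.96 and 4.79 CPM in LPS-saline. It was at 9.97, 7.58, 3.90 and 4.66 CPM in saline-LPS, and at 188, 5.17, 5.50 and 5.63 CPM in LPS-LPS. A single library thus set the LPS-LPS mean, and the other 3 mice of that group lay within 0.5 CPM of each other. The fitted log2 fold change was 1.64 ± 0.79 (SE) for averaged prenatal LPS and 3.74 ± 1.13 for both injections, neither of which passed (edgeR adjusted p 0.238 and 0.0713). Without LPS-LPS replicate 1 these were 0.03 and 0.51 (adjusted p 0.949 and 0.253), and the change before pubertal LPS went from 2.97 to -0.26.

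Pituitary messages were high in the same libraries. The 12 pituitary markers summed to 648 CPM in LPS-LPS replicate 1, to 55.6 CPM in saline-LPS replicate 1 and to 2.36 to 7.24 CPM in the other 14. Prl, the prolactin gene, was at 106 and 5.94 CPM in those 2 libraries, and Tbx19, a transcription factor of the Pomc-expressing pituitary cells, was at 1.33 CPM in the first. Only 5 of the 12 markers passed the filter on low counts, and Gh was at 0 counts in 4 libraries. Saline-LPS replicate 2, with 7.58 CPM of Pomc, held 1.20 CPM of Gh. Pomc deviations followed the pituitary list with r of 0.98 and rho of 0.806 (permutation p 0.0124 and 0.0147, adjusted over 40 relations to 0.247 and 0.295). Without LPS-LPS replicates 1 and 3 r was 0.906, but the group means were not recomputed. The deviations of LPS-LPS replicates 2 and 4 thus still depended on replicate 1, and this r does not show the relation without it. With the pituitary list as covariate, a fit chosen after seeing the data, Pomc was higher by 0.57 for averaged prenatal LPS and by 0.81 for both injections (edgeR adjusted p 0.0126 and 0.0197). Without the 2 libraries with the highest Gh the values were 0.17 and 0.51 (adjusted p 0.499 and 0.0853).

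**Figure D5:**
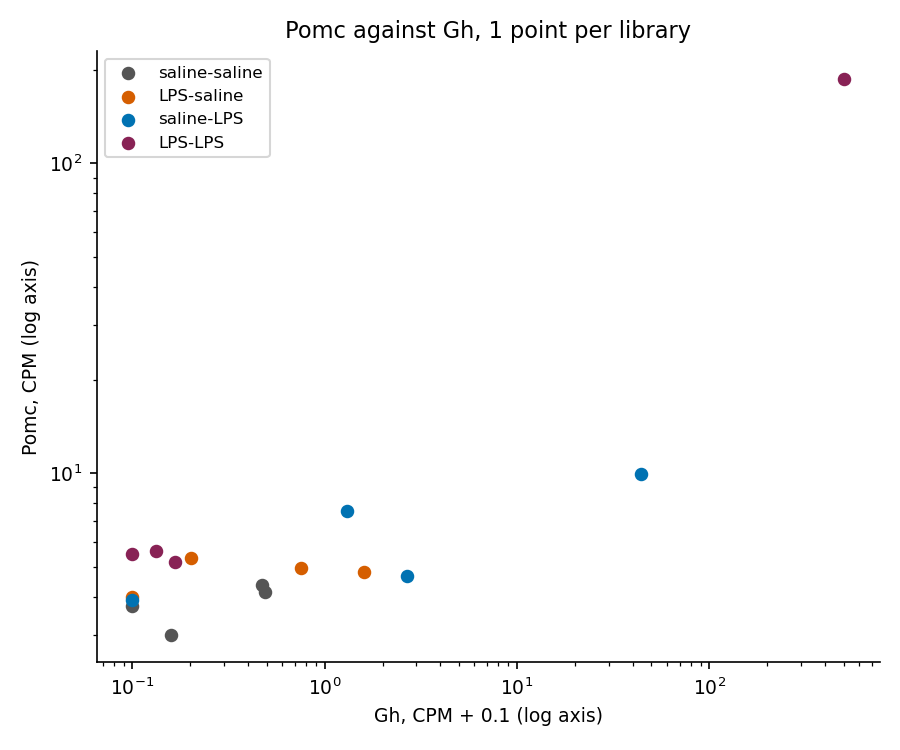
Pomc (y axis, CPM) against Gh (x axis, CPM plus 0.1), both on log axes, 1 point per library, coloured by group. LPS-LPS replicate 1 stands apart at 503 CPM of Gh and 188 CPM of Pomc, followed by saline-LPS replicate 1 at 44.1 and 9.97 CPM.

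The 3 remaining genes did not pass in any comparison of edgeR's fit of all 16 libraries without covariates. Agrp, the melanocortin antagonist, ranged from 0.823 to 1.46 CPM over the 16 libraries with an averaged prenatal log2 fold change of 0.08 ± 0.15 (SE, edgeR adjusted p 0.807). Hcrt, the wake-promoting orexin precursor (chr11:100761069-100762931, minus strand), averaged 5.69 ± 1.16 CPM in saline-saline, 7.24 ± 0.49 in LPS-saline, 7.04 ± 1.91 in saline-LPS and 7.40 ± 1.35 in LPS-LPS (SD, n = 4), and its change was 0.21 ± 0.12 (SE, adjusted p 0.337). Pmch (chr10:88091072-88092375, plus strand) averaged 1.60 ± 0.42, 1.43 ± 0.84, 1.53 ± 0.14 and 2.41 ± 1.23 CPM in the same order, and its change was 0.23 ± 0.26 (SE, adjusted p 0.656). In LPS-LPS the Pmch values were 3.96, 1.22, 2.82 and 1.65 CPM, a range that took in most values of the other groups.

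Pubertal LPS, given 2 days before collection, moved none of the 10 genes past the threshold, whether after prenatal saline, after prenatal LPS or averaged. The share of all tested genes called by edgeR was 0.0% in each of these comparisons. The log2 fold change was above 0 for 9, 10 and 10 of the 10 genes, respectively, with medians of 0.13, 0.12 and 0.17. Among all tested genes 51.0%, 49.3% and 50.6% were above 0. At an unadjusted p under 0.05 stood 535, 756 and 947 genes, respectively, and DESeq2 called 0, 9 and 7, none of them among the 10. The members under that unadjusted limit in the averaged comparison were Cartpt (0.20 ± 0.07), Npy (0.10 ± 0.04) and Pomc (2.10 ± 0.79), as log2 fold changes with SE. Their edgeR adjusted p-values were 0.908, 0.944 and 0.951. The Pomc value includes LPS-LPS replicate 1, at 188 CPM, and ran from 0.48 to 2.29 with a library left out. Cartpt was at 13.4 ± 1.77 CPM in saline-saline and 16.3 ± 1.35 in saline-LPS, and at 17.1 ± 1.81 in LPS-saline and 18.6 ± 0.81 in LPS-LPS (SD, n = 4).

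The test of whether prenatal LPS acted differently with and without pubertal LPS called 0.0% of genes and 0 of the 10. At an unadjusted p under 0.05 stood 402 genes, none of the 10 among them, and DESeq2 called 2 genes. The difference between strata was 0.03 ± 0.08 for Npy, -0.16 ± 0.13 for Cartpt and 0.03 ± 0.13 for Trh on the log2 scale (SE), each smaller than 2 standard errors.

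Spread between mice of a group was measured by the biological coefficient of variation, the square root of edgeR's dispersion for a gene, whose median over tested genes was 10.3%. Npy was among the steadiest at 6.05%, percentile 4.96 of all tested genes. Crh (8.92%), Trh (9.26%) and Cartpt (9.68%) also lay under the median. Agrp (13.3%), Oxt (16.6%) and Hcrt (16.8%) lay above it, and Avp (25.6%), Pmch (33.6%) and Pomc (90.0%) were higher still. Among genes of like level (within 0.5 log2 units of mean CPM), Avp stood at percentile 99.4, Pmch at 98.4, Oxt at 94.1 and Hcrt at 92.3. Npy (10.9), Agrp (10.3) and Crh (8.26) lay at low percentiles among genes of like level.

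For each gene the tested genes with the most similar deviations over the 16 libraries were sought among 13761 genes of at least 1 CPM. They are given as a description, since libraries share depth and region content. For Pomc they included the pituitary hormone genes Gh (r 0.900) and Tshb (0.833). The nearest to Cartpt were Slc48a1 (0.945), Vegfb (0.942) and Itpka (0.917), to Trh Rpl9 (0.885), Myh3 (0.883) and Htatip2 (0.863), and to Npy Dpagt1 (0.848), Pex11g (0.839) and the activity-regulated gene Npas4 (0.839). Those of Avp were Ankrd46 (0.937), Lemd1 (0.926) and Psmb4 (0.914), and those of Oxt were Babam1 (0.925), Ctsd (0.915) and Gfra4 (0.888). Hcrt was nearest to Dhps (0.854), Pmch to Layn (0.844), Crh to Cnot4 (0.801) and Agrp to Gucy2f (0.898).

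Other genes of peptide signalling were followed from lists of processing enzymes, further peptides, receptors and degrading enzymes. For averaged prenatal LPS, 4.9% of 18875 tested genes passed as higher and 552 genes as lower. Fits with the length and GC offset or with marker covariates are not given for these lists. Of 11 tested genes of prohormone processing and secretion, 2 rose after prenatal LPS and 0 fell, at a median log2 fold change of 0.03. Pcsk1n, which encodes the inhibitor proSAAS of the prohormone convertase, was at 965 ± 111 CPM in saline-saline, 1220 ± 87.8 in LPS-saline, 1068 ± 59.4 in saline-LPS and 1378 ± 118 in LPS-LPS (SD, n = 4), a log2 fold change of 0.35 ± 0.06 (SE, edgeR adjusted p 0.00146). It was also called before pubertal LPS (0.37, adjusted p 0.0372) and for both injections (0.51, adjusted p 0.00204). Chga, the granule protein chromogranin A, was higher by 0.14 ± 0.04 (adjusted p 0.0334). The convertases Pcsk1 and Pcsk2 (-0.07 and 0.08, adjusted p 0.682 and 0.305) and carboxypeptidase E (Cpe, 0.02, adjusted p 0.801) did not pass.

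Of 12 other hypothalamic peptide genes tested, 1 rose after prenatal LPS and 0 fell, at a median of 0.10. Of all tested genes 4.9% passed as higher. Tac2, the neurokinin B precursor, was at 6.32 ± 0.75 CPM in saline-saline, 7.87 ± 0.39 in LPS-saline, 6.72 ± 1.19 in saline-LPS and 7.99 ± 1.06 in LPS-LPS (SD, n = 4), a log2 fold change of 0.28 ± 0.09 (SE, edgeR adjusted p 0.048). Growth hormone-releasing hormone (Ghrh, 0.53, adjusted p 0.332) and galanin (Gal, 0.24, adjusted p 0.221) did not pass.

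Of 16 tested receptor genes for these peptides and for leptin and ghrelin, 0 rose and 1 fell after prenatal LPS, at a median of -0.01. Of all 18875 tested genes 552 passed as lower. Ghsr, the ghrelin receptor of Npy and Agrp neurons, fell by 0.55 ± 0.17 on the log2 scale (SE, edgeR adjusted p 0.0497) at levels under 1 CPM. Npy2r, a presynaptic receptor for neuropeptide Y, fell by 0.45 ± 0.10 in mice with both injections (adjusted p 0.0102), from 9.16 ± 0.89 to 6.69 ± 0.62 CPM (SD, n = 4). The thyrotropin-releasing hormone receptor Trhr (-0.02, adjusted p 0.96) and the neuropeptide Y receptor Npy1r (0.19, adjusted p 0.152) did not pass. Of 6 genes of peptide binding and degradation 1 fell, Lnpep, which encodes an aminopeptidase that cleaves oxytocin and vasopressin, by 0.32 ± 0.09 (adjusted p 0.0335). The thyrotropin-releasing hormone-degrading enzyme gene Trhde was at -0.12 (adjusted p 0.165).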

How the data were processed

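RNA of 16 whole brains was sequenced, 4 mice in each of 4 groups. The authors deposited whole-number read counts per Ensembl gene. The submitters' processing notes name STAR 2.5.2b, HTSeq 0.11.2 and the build GRCm38, and the sources used here give no strand setting, annotation release or read filter. Library sizes and tests rest on the 49671 genes of a file, without its 5 special entries. Reads without a gene took 8.38 to 11.1% of all counts, ambiguous reads 5.11 to 5.48% and reads that did not align uniquely 3.18 to 3.90%. Reads carry no molecular identifiers. Symbols and coordinates came from GENCODE release M21 (49412 identifiers matched, 259 did not), and promoters from RefSeq. Without strand, reads of a gene and of its antisense partner cannot be separated.

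Counts were tested with edgeR 4.0.16 in R 4.3.3 (filterByExpr, TMM, robust quasi-likelihood fit of the 4 groups over all 16 libraries), which left 18875 genes over which Benjamini-Hochberg p-values were adjusted, two-sided, at a threshold of 0.05. There were 8 comparisons. Precision follows from the number of mice and from 25729919 to 38571036 counts per library. No 2 libraries of a group were duplicates. The edgeR steps were tested on simulated counts. Relations between genes used log2(CPM + 0.1) as deviations from group means, with 100000 permutations within groups. Where 2 libraries were left out of a relation, the group means still included them. The length and GC offset of an edgeR alternative was, for each library, a smooth fit of its log ratios on exonic length and GC content. DESeq2 1.42.0 and the further alternatives are given in the closing section.

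The members and the 12 gene lists beside them were chosen with earlier results of these data known. Named were all 10 genes, list members called for averaged prenatal LPS or both injections (up to 4 a list by p), the 3 genes most similar to each of the 10 or the nearest, and Gabra6, Gh, Xist and Ddx3y. Other genes of the lists that are named were chosen after their values were seen. Replicate numbers come from the labels. Deviations of same-numbered libraries over 15230 genes correlated at 0.138 to 0.599 between LPS-saline and saline-saline, at 0.294 to 0.386 between LPS-LPS and saline-LPS and at 0.181 to 0.346 between LPS-LPS and LPS-saline. By the rule that each pair exceeds 0.1, the numbers were taken to pair these libraries. Between saline-LPS and saline-saline the values ran from 0.0317 to 0.343, and between LPS-LPS and saline-saline from 0.0143 to 0.383. In each, 3 of 4 pairs exceeded 0.1, so the rule was not met. Of 16 libraries, 10 had their best partner in another group under their own number. The fit with the replicate block is given where it changed a call, also for both injections, where the rule was not met. Kiss1 is not analysed here.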

Additional observations from a re-analysis of the deposited data

Results flagged for a closer look

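Of 40 groups of 4 values (10 genes in 4 groups), 2 held a value whose gap to its nearest neighbour exceeded Dixon's 95% limit for the share of the group's range, and chance gives about 1 in 20, or 2 of 40. Pomc stood at 187.954 CPM in LPS-LPS replicate 1, against 5.17 to 5.63 CPM in the other 3 mice, and Gh was at 503 CPM in the same library. Oxt stood at 8.92333 CPM in LPS-saline replicate 4, against 11.9 to 12.5 CPM in the other 3, while Avp in that library (27.2 CPM) lay within its group.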

How the results depend on the processing

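Of 251 counts of called peptide genes or relations under an alternative, 233 stayed within 1.5 times of the value reported. Outside averaged prenatal LPS and both injections that value was 0, and a 0 that stayed 0 is among the 233. Of 1131 log2 fold changes of single genes, 16 lost a call, 31 gained one and 21 reversed, none of the last of a gene called in its comparison. For averaged prenatal LPS, Npy lost its call in 4, Cartpt in 6 and Trh in 3 of 31 alternatives. Alternatives named here as covariates of pituitary, thalamus, olfactory bulb and cortical markers were chosen after seeing the data. For averaged prenatal LPS (3 called), 0 were called within the libraries under 1 CPM of Gabra6 and with olfactory bulb or cortical markers, and 2 to 3 with a library left out. For both injections (3 called), 5 were called with the replicate block or pituitary markers, 0 with cortical markers, and 3 to 4 with a library left out. Before pubertal saline (0 called), the counts were 2 with DESeq2 or Gabra6 as covariate, 1 with the replicate block, hypothalamus regulators or without the 2 libraries highest in Gh, and 0 to 1 with a library left out (Trh without saline-LPS replicate 1). Before pubertal LPS (0 called), they were 2 with DESeq2 or Gabra6 as covariate and 1 with no filter, the replicate block or pituitary markers. Of the 45 pairs 1 passed without the 2 libraries farthest from the median (Pomc with Agrp). The libraries left out there, LPS-LPS replicates 1 and 2, were still part of the group mean. The replicate block changed no other call of the 10 genes than those given. Within-stratum fits could not be run where a side held fewer than 2 libraries. Calls over all genes for averaged prenatal LPS were 2279 in DESeq2, 2495 with the block, 679 with the length and GC offset and 76 with cortical markers, and for both injections 2003, 2185, 534 and 43.

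Reversals for averaged prenatal LPS were those of Agrp (-0.028 with the length and GC offset, -0.022 with the block added, -0.036 at 1 CPM or more of Gabra6, -0.030 with thalamus markers) and, under 1 CPM of Gabra6, of Pomc (-0.25), Hcrt (-0.13) and Pmch (-0.76). For both injections Agrp reversed with the offset, without and with the replicate block (-0.056 and -0.059), and with thalamus markers (-0.10), and ranged from -0.037 to 0.23 with a library left out. Pomc reversed before pubertal saline with cortical markers (-0.25) and ranged from -0.26 to 3.35 before pubertal LPS with a library left out. In the interaction, Npy reversed with the offset, without and with the replicate block (-0.026 and -0.026), and with hypothalamus regulators (-0.0035), and ranged from -0.012 to 0.051 with a library left out. Trh there reversed without the 2 libraries highest in Gh (-0.062) and ranged from -0.045 to 0.088. The causes were not tested. The labels give no litter, and Agrp has the lowest counts of the 10, 25 to 47 per library.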
